A study of Rattus norvegicus with 89 samples.

Results

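The cytosolic ribosomal proteins are the protein parts of the ribosomes that translate messenger RNA in the cytoplasm. Members were the probe sets whose only gene symbol is that of a cytosolic ribosomal protein (Rpl or Rps followed by a number, Rplp0 to Rplp2, or Rpsa), with the Rps6k kinases left out. The rule found 57 of the 31042 probe sets on the array, for 50 of the 14217 genes that a probe set names alone. Of these genes 34 carry names of large subunit proteins and 16 carry names of small subunit proteins. A further 36 probe sets pair a ribosomal protein symbol with other symbols and are not members. Rps27, Rpl22l1, Rps19, Rplp1, Rplp2 and Rps27a were not among the members.

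The series profiled the apical parts of both kidneys of 89 Sprague-Dawley rats, 1 Affymetrix array per rat, 44 males and 45 females, 7 to 8 weeks old when the experiment started. Rats were treated for 1 or 5 days with gentamicin (an aminoglycoside antibiotic, Gentamycin in the labels), tobramycin (another aminoglycoside), cisplatin (a DNA crosslinking drug), cadmium (a heavy metal), doxorubicin (an anthracycline), valproic acid (an anticonvulsant, ValproicAcid in the labels) or saline, and naive rats received nothing. Doxorubicin at day 5 had 5 rats, saline had 7 at day 1 and 5 at day 5, and the other groups, naive included, had 6 each. No dose is used here, and p-values measure the spread between rats. The kidney is a mixture of many cell types, and in such bulk tissue fewer cells of a type and less RNA per cell cannot be told apart.

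A ribosome holds its proteins in fixed proportions on a scaffold of ribosomal RNA, so cells make them together, and their messenger RNAs are among the most abundant in most tissues. In vertebrates these messages begin with a C and a run of pyrimidines, the terminal oligopyrimidine tract (TOP). Through this tract mTOR signalling and the protein LARP1 set how well the messages are translated and kept. Ribosomal proteins left over when assembly is disturbed, Rpl5 and Rpl11 above all, bind Mdm2 and so stabilise p53 in human and mouse cells.

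The start of the messages was looked up in the RefSeq table of promoters (GRCr8), which held 41 of the 50 genes. The windows below run from 30 bases before the start that the table gives to 20 bases from it, 5′ to 3′ on the strand of the gene. They are shown because the first 4 have a TOP-like tract at exactly that base, in capitals, and because the values of the last 2 genes, which have none there, are followed through the results. The first 4 are Rplp0 (chr12:46718371-46718420, minus strand), Rpl19 (chr10:83519034-83519083, plus strand), Rpl35a (chr11:81235002-81235051, minus strand) and Rps15 (chr7:10068096-10068145, minus strand). The last 2 are Rpl3 (chr7:113507971-113508020, minus strand) and Rps27l (chr8:76443628-76443677, plus strand).
Rplp0: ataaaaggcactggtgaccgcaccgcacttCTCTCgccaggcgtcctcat
Rpl19: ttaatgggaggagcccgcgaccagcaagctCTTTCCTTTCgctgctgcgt
Rpl35a: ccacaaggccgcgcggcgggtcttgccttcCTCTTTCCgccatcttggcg
Rps15: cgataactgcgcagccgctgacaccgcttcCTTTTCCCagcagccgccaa
Rpl3: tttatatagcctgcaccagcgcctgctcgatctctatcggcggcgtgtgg
Rps27l: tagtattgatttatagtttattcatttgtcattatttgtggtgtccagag

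The tract was counted as a C at the given start followed by at least 4 further bases that are C or T, read on the strand of the gene alone. It stood at the start of 11 of 41 member genes (26.8%), which are Rpl14, Rpl19, Rpl22, Rpl28, Rpl34, Rpl35, Rpl35a, Rpl39, Rplp0, Rps15 and Rps3a. Among all 33469 promoters of the table it stood at the start of 881 (2.63%). Anywhere between 10 bases before and 15 bases from the start, such a run was found in 27 of 41 member genes (65.9%) and in 9660 of all promoters (28.9%). The table gives 1 start per gene, which is the annotated 5′ end of the gene for 24 of the 41 members and 57.8% of all promoters. For Rpl3 the 2 lie 125 bases apart, so that the absence of a tract holds for the table's start alone. The same limit holds for the presence of a tract in Rpl19 (4555 bases apart), Rpl35a (73) and Rps15 (52). Of the other genes with a tract, Rpl22, Rpl34 and Rpl35 also have a start that differs. A match is a description of these letters and shows no regulation.

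Kidney identity was checked with marker genes. All 7 proximal tubule markers, all 4 markers of the loop of Henle and distal tubule and all 4 of the collecting duct passed the filter on low signal, the dimmest with a mean signal of 229. The summed signal of the proximal tubule markers lay between 16672 and 28044 in the 89 arrays. Among 6 lymphocyte markers, 5 had a mean signal under 33.1, the 40th percentile of all values. The signal used here is the deposited MAS5 value, scaled so that all arrays share a 2% trimmed mean of 180. Before scaling it lay between 90.9 and 350 per array.

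Of the 57 member probe sets, 51 (45 genes) passed the filter, which asks for a signal above 33.1 in at least 5 arrays. The 6 that did not are those of Rpl3l and Rpl39l1 (paralogs of Rpl3 and Rpl39), the pseudogene Rps4x-ps1, the sole probe sets of Rpl28 and Rpl30, and a second probe set of Rpl14. In 39 of the 57 the mean signal was above 1000. The 12 tested probe sets below 1000 include Rps27l (180), Rps4y2 (105.8), Rpl39 (88.2), Rpl26l1 (53.1), Rps13 (31.7) and Rpl37-ps2 (26.6). After group and sex were fitted on log2(signal + 16), the median residual SD was 0.138 for the members tested, against 0.224 for all 21557 probe sets tested. The part of signal level in this difference was not tested.

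Before any comparison, 4 arrays stood apart in the ribosomal protein signal. A score was made for each array as the mean over the 51 probe sets of the log2 value minus its mean over all arrays. The score was 0.372 in rat 5F140 (cadmium, day 5), 0.325 in 1F106 (saline, day 5), 0.280 in 7F155 (valproic acid, day 1) and 0.226 in 7F160 (valproic acid, day 5). All 4 are females, and the other 85 arrays lay between -0.179 and 0.132. The control probe sets at the 3′ and 5′ ends of GAPDH, whose signal ratio rises when RNA is degraded or copied incompletely, set the same arrays apart. The log2 3′/5′ ratio was 1.04 to 1.58 in these 4 and 0.154 to 0.813 in the other 85, and the matching ratio of actin was 2.90 to 3.40 against 1.26 to 2.48. Within the 85 arrays the score and the GAPDH ratio had a Pearson r of 0.34 (Spearman rho 0.34), and the score and the actin ratio an r of 0.47 (rho 0.49). These are descriptions over arrays that share the same control probe sets and the same scaling. Comparisons that hold these arrays are given below with and without the 4, as medians, counts of calls and, for the members with the widest differences, single values.

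**Figure D1:**
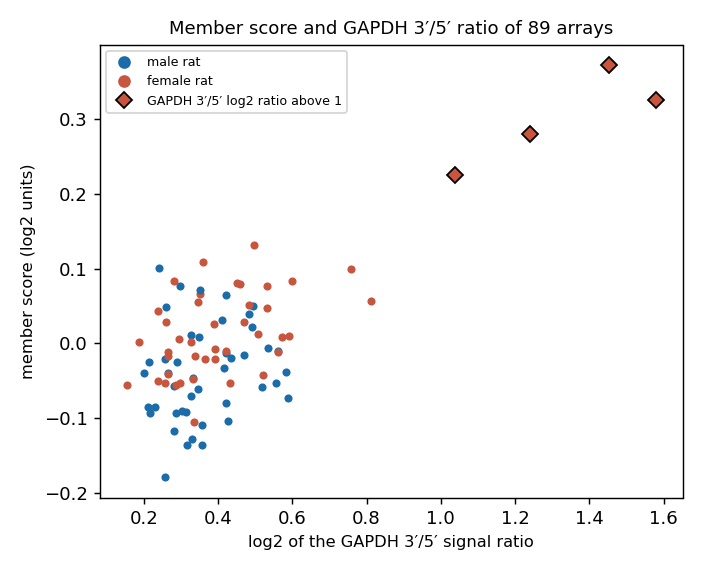
Score of the 51 ribosomal protein probe sets (vertical axis, log2 units) against the log2 ratio of GAPDH 3′ to 5′ signal (horizontal axis), 1 point per array, males in blue and females in red, with the 4 arrays whose log2 ratio is above 1 as outlined diamonds. The 4 arrays sit at a score of 0.226 to 0.372, above the other 85, which end at 0.132.

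**Figure D2:**
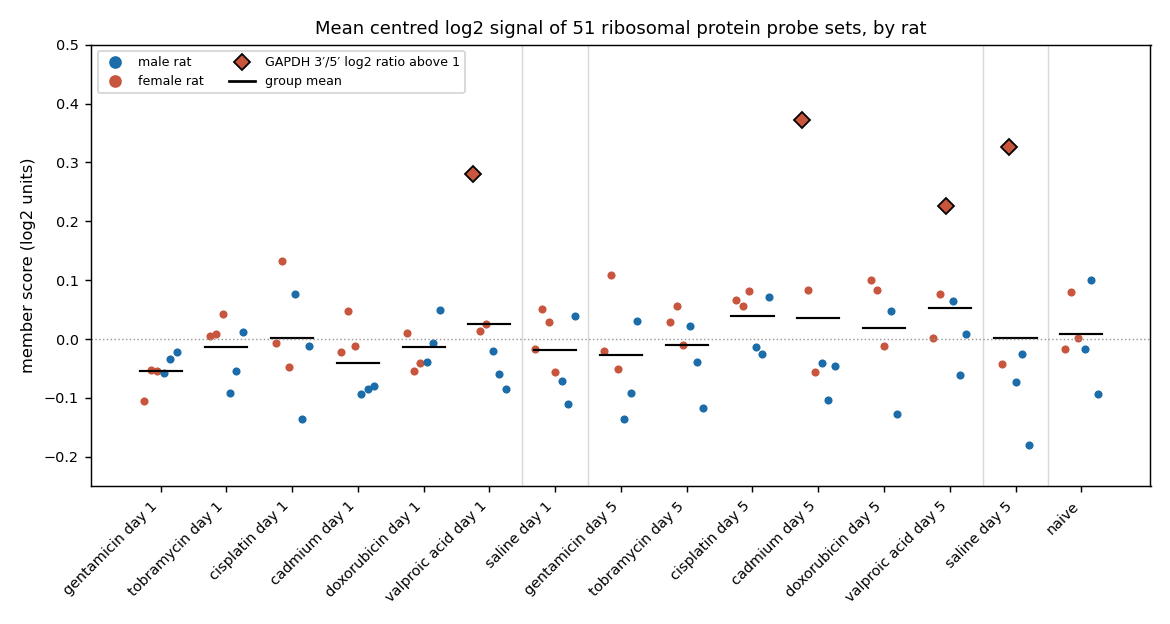
Score of the 51 ribosomal protein probe sets (log2 units) in each of the 89 rats, by group, with treated groups left of saline of the same day and naive rats at the right. Points are rats (males blue, females red, the 4 arrays apart as outlined diamonds) and lines are group means, which lie between -0.054 and 0.053.

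The members rose and fell together from rat to rat. The median r of a member with the mean of the other members was 0.674 over 89 arrays, and 34 of 51 had an r above 0.5. Without the 4 arrays the median was 0.562, with 30 above 0.5. These correlations are across arrays that share group, sex and RNA quality and are given as a description. The member with the lowest r (-0.727, and -0.483 in the 85 arrays) was the brighter of the 2 probe sets of Rpl7l1 (mean signal 502). Rpl7l1 is a paralog of Rpl7 that in human cells takes part in making ribosomal subunits in the nucleolus. In the 4 arrays apart this probe set gave 310, 332, 370 and 400, against a range of up to 620 over all arrays. The dimmer Rpl7l1 probe set was high in the same arrays, with 631, 580, 599 and 644 and a mean of 490. Over the 89 arrays the log2 values of both had an r of -0.387. Of 7 such pairs within a gene, Rpsa gave 0.621 and 0.470, Rpl7 0.461, Rps24 0.218, Rpl3 0.077 and Rpl14 -0.103.

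The treatment comparisons ask which ribosomal protein messages moved with each compound relative to saline of the same day. At day 1 none of the 51 probe sets passed in any of the 6 treatments (limma on all 89 arrays, adjusted p under 0.05 over 21557 probe sets). The probe sets called in all were 0.0974% with gentamicin, 0.302% with tobramycin, 0% with cisplatin, 0.0464% with cadmium, 0.0371% with doxorubicin and 0.144% with valproic acid. With so few calls a count of 0 among 51 is close to what the whole array shows. At an unadjusted p under 0.05 there was 1 member each with tobramycin (the dimmer Rps24 probe set), cisplatin (Rpl27) and cadmium (Rplp0), and 0 with the other 3 compounds, where 3.36% to 8.92% of all probe sets tested reached it. All 3 are named because the count is small, with their values already known. The median log2 difference of the members was -0.06 with gentamicin, 0.02 with tobramycin, 0.04 with cisplatin, -0.03 with cadmium and 0.05 with valproic acid, and it was within 0.0002 of 0 with doxorubicin. The medians over all probe sets tested lay between -0.014 and 0.021. Without rat 7F155 and the other 3 arrays apart, the median with valproic acid at day 1 was 0.0009. The score of 7F155 is the highest of its group, so leaving it out was bound to lower this median.

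After gentamicin, an aminoglycoside that binds ribosomal RNA of bacteria, 12 of 51 members were higher than in saline rats at day 1, where 51.5% of all probe sets were. The lower side depends on the scaling: the members' median minus that of all probe sets was -0.07 with the values used here and -0.001 after quantile normalization, and at day 5 it was -0.06 with the values used here and 0.02 after quantile normalization. After tobramycin at day 1, 37 of 51 were higher, where 52.9% of all probe sets were. With gentamicin at day 1 the median was -0.062 for large and -0.061 for small subunit proteins, and with tobramycin 0.021 and 0.018. A difference between the subunits was not tested. The 95% interval of the difference lay within 1.5-fold in either direction for 49 of 51 members in each of the 6 comparisons at day 1. Of all probe sets tested, 85.5% to 89.1% had such an interval.

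At day 5 again no member passed with any of the 6 compounds. The probe sets called in all were 0.00928% with gentamicin, 0.0139% with tobramycin, 0.306% with cisplatin, 0.0417% with cadmium, 0.241% with doxorubicin and 0.0742% with valproic acid. At an unadjusted p under 0.05 there were 2, 2, 5, 0, 1 and 3 members in the same order of compounds, where 10.6%, 7.44%, 10.8%, 6.19%, 9.14% and 7.11% of all probe sets reached it. The median difference of the members was -0.05 with gentamicin, -0.03 with tobramycin, 0.02 with cisplatin, 0.01 with cadmium, 0.004 with doxorubicin and 0.04 with valproic acid, and the medians over all probe sets lay between 0.013 and 0.024. The interval stayed within 1.5-fold for 46 of 51 members with cisplatin, 49 with doxorubicin and 48 with each of the other 4. Over these compounds 78.1% to 83.5% of all probe sets tested had such an interval.

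All 6 comparisons at day 5 share the 5 saline rats of that day, among them 1F106. Its score is the highest of the 5, so leaving it out was bound to lower the members' level in saline rats. The direction of the shifts below follows from that choice. With cadmium and valproic acid a treated rat with a high score was left out as well. Without the 4 arrays apart the medians were 0.03 with gentamicin, 0.05 with tobramycin, 0.10 with cisplatin, 0.02 with cadmium, 0.08 with doxorubicin and 0.09 with valproic acid. Then 41, 41, 47, 38, 46 and 47 of 51 members were higher than in saline rats, where all arrays had given 11, 14, 31, 31, 27 and 41, and still none passed. Of all probe sets 51.3% to 55.6% were then higher. The calls over the whole array without the 4 arrays numbered 1, 0, 23, 0, 27 and 14, where all arrays had given 2, 3, 66, 9, 52 and 16. The medians over all probe sets without the 4 arrays lay between 0.004 and 0.018. In saline rats of day 5 against naive rats the members' median was -0.001 with all arrays and -0.08 without the 4.

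**Figure D3:**
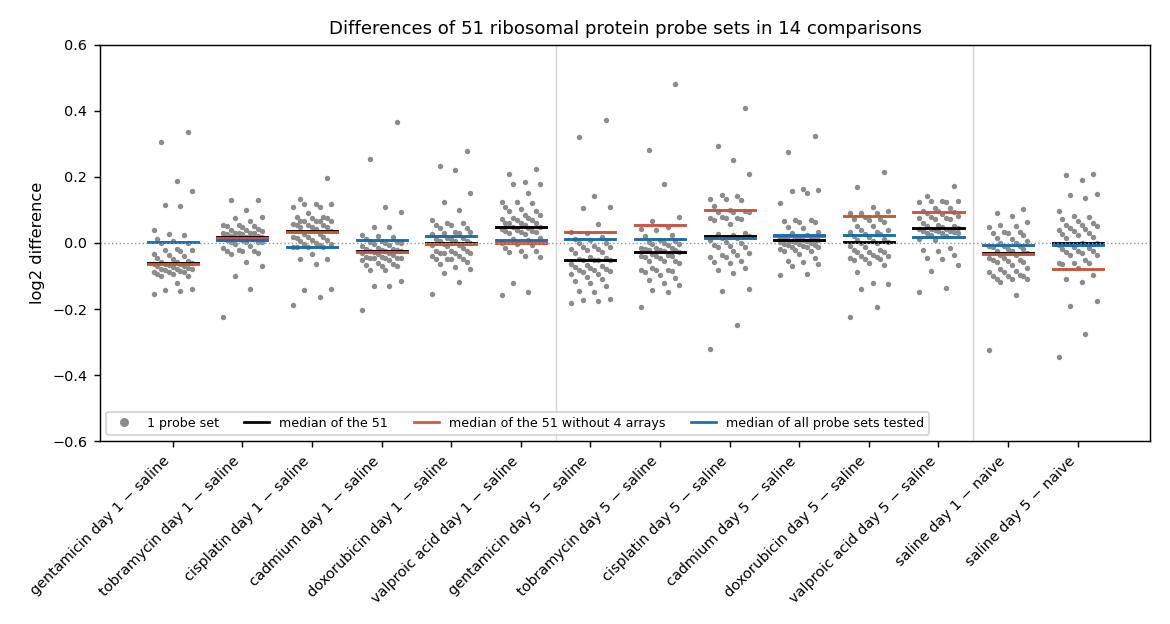
Log2 differences of the 51 ribosomal protein probe sets (grey points) in 12 treatment comparisons with saline of the same day and 2 comparisons of saline with naive rats. Black lines mark the members' median with all arrays (-0.06 to 0.05), red lines the same without the 4 arrays apart (-0.08 to 0.10), and blue lines the median of all probe sets tested.

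None of the widest differences at day 5 passed. With tobramycin the largest was Rpl39, a short protein of the exit tunnel, at 0.48 (95% interval -0.16 to 1.12, adjusted p = 0.768), and the smallest was the dimmer Rpl7 probe set at -0.19 (adjusted p = 0.874). With cisplatin the largest was the dimmer Rpl3 probe set at 0.41 (adjusted p = 0.660) and the smallest Rpl39 at -0.32 (adjusted p = 0.743), which was -0.04 without the 4 arrays. With gentamicin they were the dimmer Rpl7 probe set at 0.37 (adjusted p = 0.537) and Rpl13a, a protein that in human cells also silences inflammatory messages, at -0.18 (adjusted p = 0.596), which was -0.02 without the 4 arrays. With cadmium they were Rpl39 at 0.32 (adjusted p = 0.949) and the brighter Rps24 probe set at -0.10 (adjusted p = 0.936). With valproic acid they were the dimmer Rpl7 probe set at 0.17 (adjusted p = 0.933) and Rpl37-ps2 at -0.15 (adjusted p = 0.899), which was -0.02 without the 4 arrays. With doxorubicin they were the brighter Rpl7l1 probe set at 0.21 (adjusted p = 0.471) and the dimmest Rpsa probe set at -0.22 (adjusted p = 0.699). The difference of Rpsa turned to 0.10 without the 4 arrays.

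The brighter Rpl7l1 probe set gave 407, 500, 512, 599 and 501 in doxorubicin rats of day 5, against 443, 310, 448, 464 and 542 in saline rats of day 5. The groups overlap, and the lowest saline value is that of 1F106. The difference of 0.21 with all arrays was 0.10 without the 4 arrays apart (adjusted p = 0.912).

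Rpl4 and Rpl27a were the only members that passed in a treatment comparison under any of the settings tried, each with cisplatin at day 5 and in 1 setting. Both are named after their values were seen. Rpl4, a core protein of the large subunit, gave 2698, 2565, 2825, 2575, 2542 and 2817 in cisplatin rats, against 2512, 2525, 2304, 2422 and 2220 in saline rats of day 5. All 6 cisplatin values lie above all 5 saline values. The log2 difference was 0.14 (95% interval 0.05 to 0.24, adjusted p = 0.201), and after quantile normalization 0.20 (adjusted p = 0.0283). Rpl4 averaged 2397 in saline rats of day 5, the lowest of the control groups, 2566 in saline rats of day 1 and 2465 in naive rats. Rpl27a, another large subunit protein, gave 4969, 4641, 4307, 4095, 4221 and 4474 in cisplatin rats, against 3973, 6069, 3850, 3595 and 3529 in saline rats, the value of 6069 being that of 1F106. Its difference was 0.09 with all arrays (adjusted p = 0.700) and 0.23 with the GAPDH ratio as a further term in the model (adjusted p = 0.0367).

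Rps27l is a paralog of the small subunit protein Rps27 and is switched on by p53 in human and mouse cells. It gave 230, 237, 235, 169, 150 and 310 in cisplatin rats of day 5, against 221, 255, 126, 157.98 and 120 in saline rats. Values are given with females first, 3 of the cisplatin and 2 of the saline rats, and 255 is that of 1F106. The groups overlap, and 3 of 6 cisplatin rats, all males, lay above the mean log2 value of the saline rats of their own sex. The female mean of saline rats rests on 221 and on 1F106, 1 of the 4 arrays apart. All 3 cisplatin females lie above 221. The log2 difference was 0.29 (95% interval -0.02 to 0.60, adjusted p = 0.495) and 0.38 without the 4 arrays apart (adjusted p = 0.603). Over the 12 treatment comparisons Rps27l lay between -0.15 (gentamicin, day 1) and 0.29, with 0.495 as its smallest adjusted p. Mdm2, the ubiquitin ligase that p53 also switches on, passed in the same comparison. Its signal averaged 588 ± 227 in cisplatin rats (SD, n = 6), with a range of 423 to 1013, and 373 ± 62.9 in saline rats (SD, n = 5), with a range of 302 to 426. The log2 difference of Mdm2 was 0.60 ± 0.10 (SE, adjusted p = 0.000198).

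The other 7 listed members that were measured stayed within narrower bounds. Rpl5 and Rpl11, which bind Mdm2, lay between -0.08 and 0.08 and between -0.07 and 0.09 over the 12 comparisons, with smallest adjusted p of 0.780 and 0.508. Rps6, the small subunit protein that is phosphorylated downstream of mTOR, lay between -0.03 and 0.09. Rplp0, the base of the acidic stalk that recruits elongation factors, lay between -0.11 and 0.08. Rpl22, of the large subunit, lay between -0.08 and 0.07, and Rpsa, also known as the laminin receptor precursor, between -0.07 and 0.08. Rpl3, beside the peptidyl transferase centre, lay between -0.12 and 0.09. None of the 7 passed in any of the 12 comparisons.

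Saline rats were compared with naive rats to see whether handling and injection moved the members. None of the 51 passed at day 1, where 0% of all probe sets were called, or at day 5, where 0% were called as well. At an unadjusted p under 0.05 there were 0 members at day 1 and 2 at day 5, the brighter probe sets of Rpl7 and of Rpl7l1, both lower in saline rats, where 6.58% and 10.97% of all probe sets reached it. The difference between the effect at day 5 and that at day 1 was tested for each compound. No member passed for any compound, while the probe sets called in all were 0% for gentamicin, tobramycin and cadmium, 0.00464% for cisplatin, 0.051% for doxorubicin and 0.00464% for valproic acid. At an unadjusted p under 0.05 there were between 0 and 2 members per compound, where 2.38% to 9.14% of all probe sets reached it.

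A test of any difference among the 15 groups called 3% of all probe sets and 1 of 51 members, the brighter probe set of Rpl3 (F = 2.99, adjusted p = 0.0395). The share of members called is thus close to that of the whole array. Rpl3 lies at chr7:113491943-113508115 (GRCr8). Its signal averaged 3963 ± 206 after gentamicin at day 1 and 3973 ± 290 after gentamicin at day 5 (SD, n = 6 each), the lowest group means. It averaged 4592 ± 330 after valproic acid at day 5 (SD, n = 6), 4621 ± 447 after doxorubicin at day 5 (SD, n = 5) and 4524 ± 244 after cisplatin at day 5 (SD, n = 6), the highest. Saline rats averaged 4223 ± 201 at day 1 (SD, n = 7) and 4291 ± 506 at day 5 (SD, n = 5), and naive rats 4233 ± 214 (SD, n = 6). The span from lowest to highest group mean is small next to the range of single rats, 3610 to 5408, and neighbouring groups in this order overlap. In doxorubicin rats of day 1 the 6 values lay between 4192 and 4258, while those of the 5 saline rats of day 5 lay between 3838 and 5120, the highest being that of 1F106. Without the 4 arrays apart the adjusted p was 0.0134. The call was lost under 5 of the alternatives, and when any 1 of 20 rats was left out.

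The next members by this test did not pass. They were Rplp0 (adjusted p = 0.277), Rpl4 (0.336), the brighter probe sets of Rpl7l1 (0.350) and Rpl7 (0.377), Rps3 (0.469), Rps9 (0.527), Rpl27 (0.560), Rpl39 (0.592) and Rpl12 (0.615). Rps3 and Rps9 line the path of the messenger RNA into the small subunit.

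**Figure D4:**
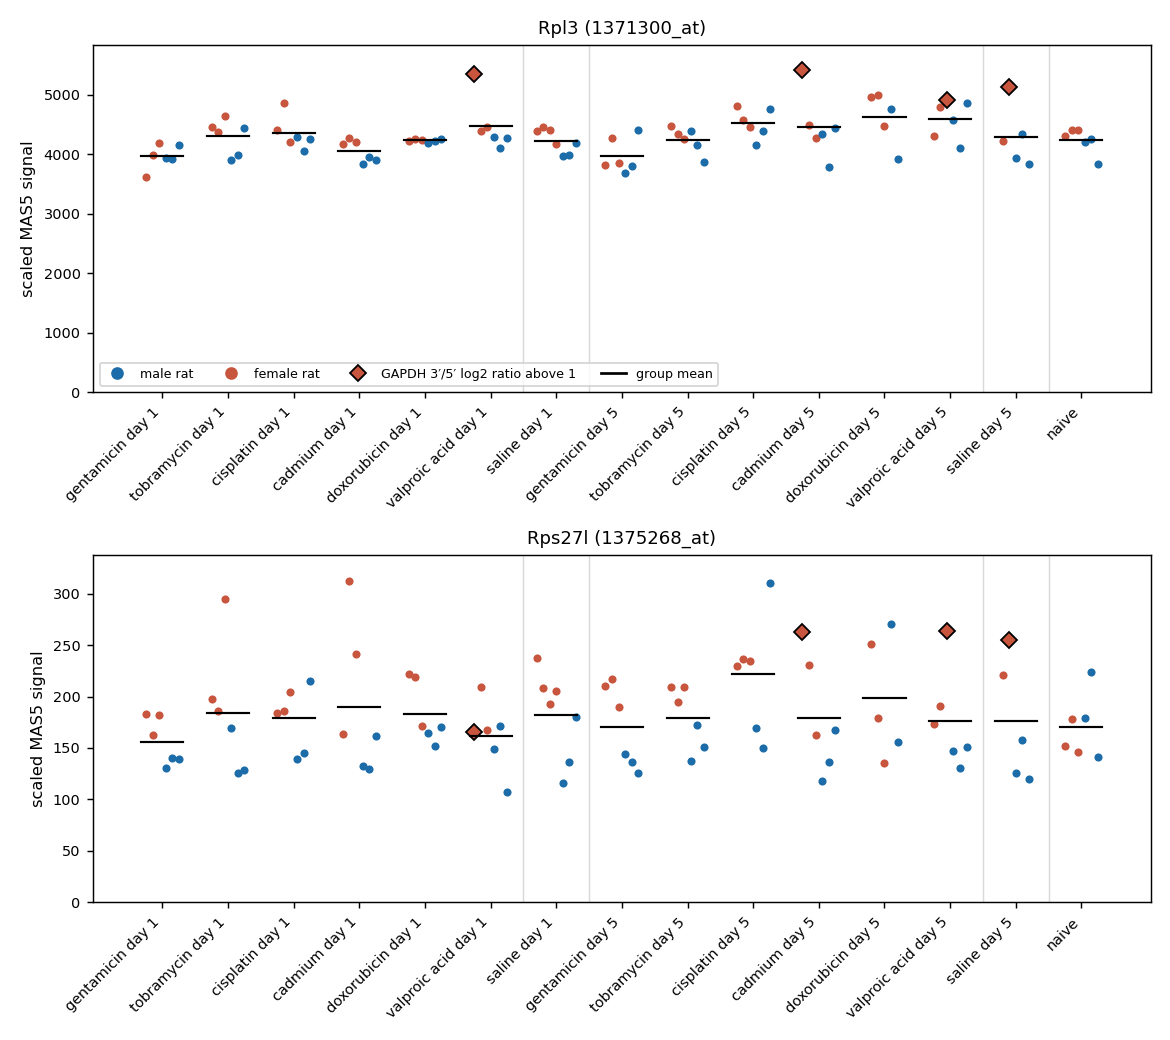
Scaled MAS5 signal of Rpl3 (upper panel) and Rps27l (lower panel) in each of the 89 rats by group, with treated groups left of saline of the same day. Males are blue, females red, the 4 arrays apart outlined diamonds and group means black lines. Rpl3 group means run from 3963 to 4621, and Rps27l is lower in males than in females in most groups.

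Sex was the contrast in which most of the ribosomal protein probe sets passed. In males minus females, with group in the model, 32 of 51 members passed, where 59.4% of all probe sets did, so that the share of members is close to that of the whole array. Of the 32, 29 were lower in males, where 37.1% of all probe sets were called lower in males, and 3 were higher in males, where 22.3% of all were called higher. The 29 include Rpl37-ps2, which passed the filter on low signal mainly through females. The members' median difference was -0.09 and that of all probe sets -0.04. The direction depends on how arrays are scaled: with a common median in place of the common trimmed mean, 10 members passed as lower and 11 as higher in males, where 5764 and 6568 of all 21557 probe sets did. With quantile normalization it was 42 and 4 members, where 6690 and 5708 of all probe sets did. The members' median minus that of all probe sets was -0.05 in the values used here, -0.04 with a common median and -0.12 with quantile normalization. Without the 4 arrays apart, all from females, 25 passed as lower and 5 as higher in males, with a median of -0.05, where 7867 and 4513 of all probe sets did. These 4 arrays have the highest scores, so leaving them out was bound to move the members' median towards 0. Of the 32 members 27 passed in both fits, and Rpl5, Rpl7a, Rpl11, Rpl12 and the brighter Rpl7l1 probe set did not pass without the 4 arrays. With the GAPDH ratio in the model 22 passed as lower and 7 as higher, where 7885 and 4494 of all probe sets did, and the members' median then stood 0.003 below that of all probe sets.

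Rps27l had the largest sex difference of all members. Its signal lay between 107 and 310 with a median of 146.2 in 44 males, and between 135 and 313 with a median of 204 in 45 females. The ranges overlap, and males were lower on average in 13 of 15 groups. The log2 difference was -0.38 ± 0.05 (SE, adjusted p = 1.01e-08) and -0.35 without the 4 arrays apart. It kept its sign and passed in 14 of 15 alternatives, the exception being saline and naive rats alone, where it was -0.35 (adjusted p = 0.0620).

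Rpl23a, a large subunit protein at the exit of the nascent chain, had a signal of 2018 to 3036 with a median of 2537 in males, and of 2399 to 4418 with a median of 2992 in females. Males were lower in all 15 groups, by 0.09 to 0.44 on the log2 scale, although single rats overlap. The fitted difference was -0.28 ± 0.03 (SE, adjusted p = 2.15e-11), and it passed in all 15 alternatives, saline and naive rats alone included (-0.29, adjusted p = 0.00436). Rpl24, a large subunit protein that forms a bridge to the small subunit, gave 2260 to 2878 with a median of 2533 in males, and 2300 to 3369 with a median of 2949 in females. Its difference was -0.19 ± 0.02 (SE, adjusted p = 1.78e-13), with males lower in 14 of 15 groups. Rpl24 passed in 13 of 15 alternatives, with 0.263 as the largest adjusted p, and did not pass in saline and naive rats alone.

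Rpl37-ps2, annotated as a pseudogene, had a median of 22.7 in males and 30.1 in females, both under the 40th percentile of all values. It exceeded that percentile in 1 male and 18 females and so entered the test mainly through females. Its fitted difference of -0.27, one of the 29 lower in males, is therefore given as a value with no support drawn from it. The dimmer probe set of Rps24, a small subunit protein, had a median of 121.2 in males and 143 in females and a difference of -0.23 (adjusted p = 2.83e-06). It passed in 12 of 14 alternatives, with 0.519 as the largest adjusted p. The brighter Rps24 probe set differed by -0.11 (adjusted p = 0.000423), in the same direction. The 29 members that were lower in males ran from -0.38 to -0.04, with Rpl11 nearest to 0.

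Rps4y2, named for a Y-linked form of the small subunit protein Rps4 but placed on chromosome 4 in GRCr8, was higher in males. It gave 64.4 to 186 with a median of 111.2 in males, and 53.8 to 148.4 with a median of 91.7 in females, so that the sexes overlap widely. The difference was 0.24 ± 0.06 (SE, adjusted p = 0.000799), and it passed in all 15 alternatives. The dimmer Rpl3 probe set was also higher in males, by 0.26 (adjusted p = 0.0370). It passed in 10 of 13 alternatives and lost its call when any 1 of 12 rats was left out. The brighter Rpl3 probe set was lower in males, by 0.09 (adjusted p = 7.51e-05). The brighter Rpl7l1 probe set was higher in males by 0.10 (adjusted p = 0.00673) and by 0.06 without the 4 arrays apart (adjusted p = 0.0688).

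**Figure D5:**
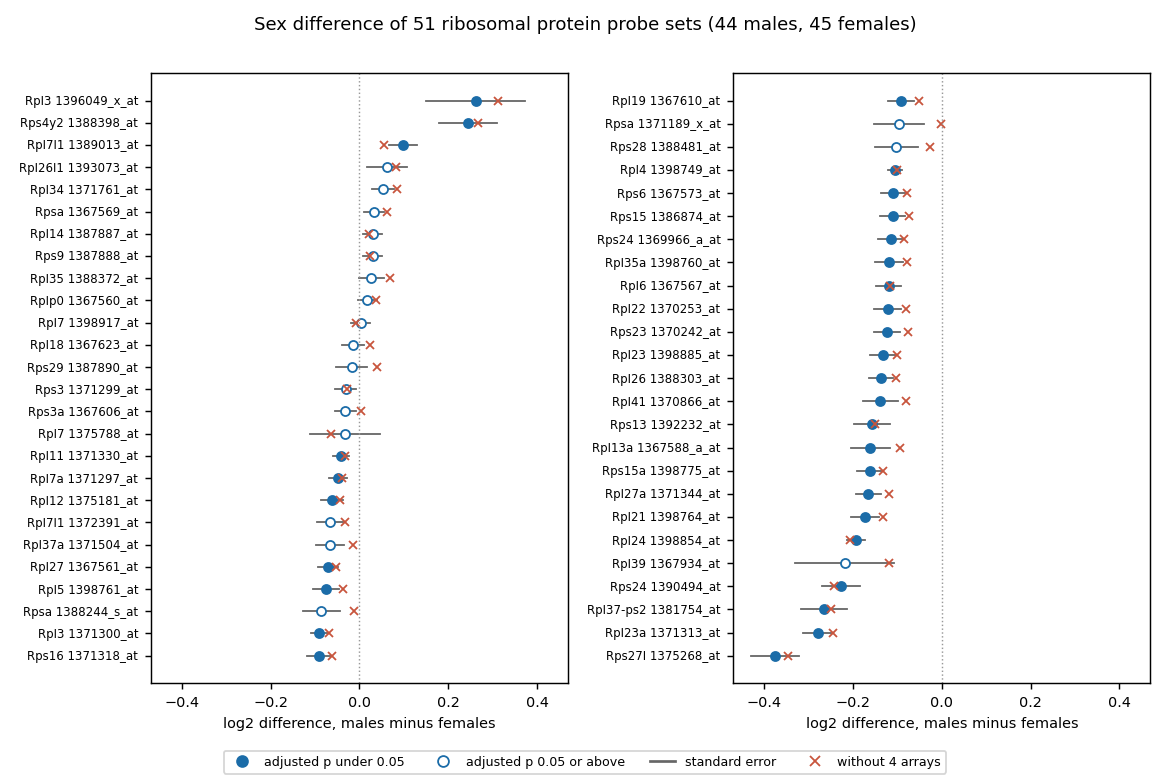
Log2 difference of each of the 51 ribosomal protein probe sets between 44 males and 45 females (males minus females, circles with standard error), filled where the adjusted p is under 0.05, with crosses for the fit without the 4 arrays apart. Of the 32 filled circles 29, Rpl37-ps2 among them, lie below 0 with these values, and 10 against 11 would with arrays scaled to a common median.

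Markers of kidney cell types moved with sex as well. All 3 podocyte markers tested, all 3 endothelial markers and all 4 collecting duct markers were lower in males (adjusted p under 0.05), where 37.1% of all probe sets were. Of 7 proximal tubule markers 3 were higher and 1 lower, and of 5 proliferation markers 3 were higher, where 22.3% of all probe sets were called higher. Lower in males were also 2 of 4 markers of the loop of Henle and distal tubule, 1 of 4 fibroblast markers and 1 of 5 macrophage and granulocyte markers, and 0 of 3 lymphocyte markers passed. The marker calls are given for the common trimmed mean and all arrays alone. With arrays scaled to a common median, 26.7% of all probe sets were lower and 30.5% higher, and the markers were not tested that way. The summed signal of the collecting duct markers had a median of 4373 in males (3040 to 7070) and 5428 in females (4127 to 7133), and that of the endothelial markers 2035 in males (1482 to 2385) and 2373 in females (1940 to 2935). That of the podocyte markers was 1445 in males (1065 to 1830) and 1785 in females (1302 to 2306), and that of the proximal tubule markers 22395 in males (17688 to 28044) and 20225 in females (16672 to 26339). None of the podocyte, endothelial and collecting duct lists has a marker under the 40th percentile. The part of cell makeup and of RNA quality in the members' sex difference was not tested. The median log2 GAPDH ratio was 0.340 in males and 0.392 in females.

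Other genes of the translation machinery were taken from lists, with 1 probe set per gene. No translation factor or other TOP message (14 tested), no ribosome biogenesis gene (29 tested) and no mitochondrial ribosomal protein (73 tested) passed in any treatment comparison. In these comparisons 0% to 0.306% of all probe sets were called, so counts of 0 are close to what the whole array shows. Of 14 regulators of ribosomal protein synthesis, 2 passed in 1 comparison each. One was Mdm2 with cisplatin at day 5, given above. The other was Atf4, which turns on stress genes when translation initiation is held back, with gentamicin at day 5. Atf4 averaged 1513 ± 476 in gentamicin rats (SD, n = 6) and 907 ± 185 in saline rats (SD, n = 5), a log2 difference of 0.71 ± 0.13 (SE, adjusted p = 0.00353). The ranges, 973 to 2119.5 with gentamicin and 601 to 1078 with saline, overlap. Saline rats of day 1 averaged 1106 and naive rats 961. The members' median with gentamicin at day 5 was -0.05 with all arrays and 0.03 without the 4 arrays apart. Atf4 and Mdm2 are given with all arrays alone.

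Between the sexes 10 of 14 translation factors and other TOP messages were lower in males and 0 were higher, with a median of -0.12, where 37.1% of all probe sets were lower and 22.3% higher. Naca, a chaperone at the ribosome's exit, differed by -0.30 ± 0.02 (SE, adjusted p = 8.58e-26), and Eef2, the translocation factor, by -0.19 ± 0.03 (SE, adjusted p = 1.21e-09). Of 29 biogenesis genes 15 were lower and 2 higher, with a median of -0.12, among them Utp4 of the small subunit processome at -0.32 (adjusted p = 7.52e-08) and Nip7, of large subunit maturation, at 0.32 (adjusted p = 2.28e-11). Of 73 mitochondrial ribosomal proteins 33 were higher and 12 lower in males, with a median of 0.05. With arrays scaled to a common median, 6 of the 14 translation genes were lower and 1 higher, 12 of the 29 biogenesis genes were lower and 4 higher, and 7 of the 73 mitochondrial genes were lower and 44 higher, where 26.7% of all probe sets were lower and 30.5% higher. Whether the lists differ was not tested.

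Genes whose pattern was most like that of Rps27l over the 89 arrays, after the mean of each sex was removed, were Bex1 (r = 0.584), Slc34a2 (0.571), Dis3l (0.567), Serpina10 (0.556) and Anxa5 (0.555). These r values are the highest of all probe sets of other genes and are a description.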

How the data were processed

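Kidney RNA of 89 rats was hybridised to 1-colour Affymetrix arrays, and the authors deposited 1 linear intensity per probe set, a MAS5 signal per the submitters' processing notes, for 31099 probe sets. The MAS5 scaling is not given in the sources used here, and arrays carry no counts, so their number limits the precision. The 57 control probe sets were set aside. Arrays were scaled to a common 2% trimmed mean, and log2(signal + 16) was fitted for probe sets above the 40th percentile in at least 5 arrays. The model held group and sex on all arrays (limma 3.58.1 with a robust intensity trend, under R 4.3.3). P-values were adjusted by Benjamini-Hochberg over 21557 probe sets, with 0.05 as the threshold. A member passed if its adjusted p was below it. On simulated data for cisplatin at day 5 (21557 probe sets) the fit recovered 41% of 100 changes of 0.5 and 81% of 100 changes of 1 on the log2 scale, with 8 false calls among 130. The simulated noise was normal and independent between probe sets, with no sex effect and no shift of whole arrays. The data hold such effects, so these rates describe the simulation alone. Figures used matplotlib 3.10.9 in Python 3.11.15.

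Groups follow the sample titles. For 5 rats the label of treatment is empty or names something else, and leaving these out was an alternative. Symbols come from GEO's platform annotation. RefSeq lists 48 of the 50 member genes under the same symbol. Members, lists and tests were chosen with earlier results of these data known. The genes named are the members that passed, the 10 smallest adjusted p over groups, the 5 largest sex differences on either side, the widest differences at day 5 and a list of 14 genes, of which 8 were measured, besides those said to have been chosen later. Each gene of that list is given by its probe set with the highest mean. Alternatives covered scaling, pseudocount, filter, probe sets, weights, covariates, control groups and left-out rats.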

Additional observations from a re-analysis of the deposited data

Results flagged for a closer look

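Dixon's ratio at the 95% level was applied to the score and to 9 named probe sets in each of the 15 groups, 150 sets of values in all, of which 12 held a rat far from the others. For a single set of normally distributed values chance gives about 1 in 20. The sets here pool both sexes and share the same rats, so the count of 12 is not read against that rate. The score of valproic acid rats of day 1 was 0.28 in 7F155, and the brighter Rpl3 probe set was 5344 in the same rat. In saline rats of day 5, 1F106 had the highest Rpl23a (3833) and the highest Rpl37-ps2 (50.04). The brighter Rpl7l1 probe set was 332.1 in cadmium rat 5F140 of day 5, the lowest of its group. These 3 rats are among the 4 arrays with a high GAPDH 3′/5′ ratio. Doxorubicin rat 6F149 of day 5 had the highest Rpl37-ps2 (43.94) and the lowest value of the dimmer Rpl3 probe set (24.49) of its group. In doxorubicin rats of day 1 the lowest value of the dimmer Rpl3 probe set was 45.42 in 6F147 and the highest Rps4y2 was 185.5 in 6M46. The brighter Rpl3 probe set was 3828 in naive rat 8M83, the lowest of its group. Rpl23a was 3618 in tobramycin rat 4F129 of day 1 and the brighter Rpl7l1 probe set 620.4 in tobramycin rat 4F131 of day 5, each the highest of its group.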

How the results depend on the processing

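No paired analysis was possible because the labels share no replicate number between groups. The 4 arrays apart, the GAPDH term, the sexes within groups and the saline and naive rats alone were chosen after seeing the data. The count of members with a treatment difference was 0 except for cisplatin at day 5. There it was 1 after quantile normalization and 1 with the GAPDH term, where 54 of all probe sets passed with the GAPDH term. Between the sexes the count was 5 without scaling, 21 with a common median and 2 in saline and naive rats alone, where 32.4%, 57.2% and 17.8% of all probe sets passed. Over the 15 groups it was 0 without scaling, with a common median, with no filter, without the 5 rats of unclear label and with the trimmed mean as a covariate, and 2 with array weights, Rplp0 being added (adjusted p = 0.0398). With 1 rat left out it was 0 to 1, and the adjusted p of Rpl3 was 0.0126 to 0.0745. Counts over all probe sets are not given here for these settings over the 15 groups, or for cisplatin after quantile normalization. These member counts are therefore not set against the whole array. Without scaling the members' median was -0.339 (doxorubicin), -0.2996 (tobramycin), -0.167 (cisplatin), -0.139 (cadmium) and -0.136 (valproic acid) at day 1. At day 5 it was 0.092 (gentamicin), -0.165 (tobramycin), 0.176 (cisplatin), -0.188 (cadmium) and 0.138 (valproic acid), and 0.294 for saline of day 1 against naive. For day 5 minus day 1 it was 0.128 (tobramycin), 0.370 (cisplatin), 0.250 (doxorubicin) and 0.280 (valproic acid). The median of all probe sets moved likewise, to -0.277 for tobramycin at day 1 and 0.345 for cisplatin day 5 minus day 1. With the GAPDH term the members' median was 0.055 (gentamicin, day 5), 0.11 (cisplatin, day 5), -0.099 (saline of day 5 against naive) and 0.097 (valproic acid, day 5 minus day 1). Without the 4 arrays, day 5 minus day 1 was 0.095 (gentamicin), 0.083 (doxorubicin) and 0.099 (valproic acid). With 1 rat left out, cadmium at day 5 ran from -0.046 without 5F140 to 0.094 without 1F106, and cadmium day 5 minus day 1 from -0.016 to 0.12 without the same rats. Males minus females within a group was -0.19 (cadmium, day 5) and -0.22 (saline, day 5), and above 0 after doxorubicin (0.045) and gentamicin (0.034) at day 1. The cause of these changes was not tested. Dim probe sets limit the precision.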
